A study of Yarrowia lipolytica with 9 samples.

Results

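A set of 154 very long expressed coding transcripts of Yarrowia lipolytica, an oleaginous yeast, was followed across 3 engineered strains. They were taken from 6366 features by 3 criteria: a RefSeq transcript accession, a coding length of at least 4000 bp and a mean of at least 1 CPM (read counts scaled to the library total) over the 9 libraries. Of 161 RefSeq rows that long, 4 were below 1 CPM and 3 were set aside by name. Apart from these 3, length and mean level over all libraries set the rule, and no difference among strains was part of it. The set was, however, chosen with earlier results of these data known. Strains yl_10, yl_11 and yl_12 all derive from the host ATCC 201249 and carry introduced heterologous genes, which the labels do not name. The labels also tie no lycopene level, parent or clone number to a strain, and the 3 strains were compared in all pairs. All were grown in flasks for 72 h at 28 °C and 250 rpm, and each strain has 3 libraries with totals from 7035777 to 16424183 counts. Within their strains, yl_10 replicate 3, yl_11 replicate 1 and yl_12 replicate 3 stood apart from the other libraries. Their deviations from the strain means correlated across features (r of 0.38, 0.29 and 0.51 between pairs), and results are given with and without these 3 deviating libraries where they moved.

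Open reading frames of this size are at the far end of the length range in yeasts. In such organisms they typically encode large multidomain proteins, among them giant kinases, motor proteins, membrane transporters and multifunctional enzymes. A transcript yields sequenced fragments in proportion to both its length and its copy number, so a long transcript takes more reads per copy than a short one. Levels of different transcripts are therefore compared below per length, as FPKM (fragments per kilobase and scaled to the library total), and levels of 1 transcript between strains as CPM. RefSeq gene models of assembly ASM176148v1 gave a locus tag to 120 of the 154 (77.9%), matched by accession without its version (4 matched with it), and no product names, so no function is assigned to single transcripts.

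Coding lengths ran from 4002 to 19617 bp, with a median of 4747.5 bp and 138 distinct values. The members just inside the limit were XM_504778.1 (4002 bp, 227 CPM), XM_499779.1 (4017 bp, 66.0 CPM) and XM_502101.1 (4017 bp, 14.2 CPM). Just outside it were XM_501356.1 (3993 bp, 143 CPM), XM_499939.1 (3993 bp, 7.24 CPM) and XM_500908.1 (3990 bp, 186 CPM). At the limit of 1 CPM, the lowest members were XM_500563.1 (1.25 CPM), XM_499898.1 (2.07 CPM) and XM_503779.1 (2.42 CPM). The nearest rows below it were XM_503731.1 (0.147 CPM), XM_503128.1 (0.0271 CPM) and XM_504795.1 (0.00939 CPM).

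The long transcripts were scarcer per length than the others but rested on more reads. Their median level was 22.3 FPKM, against 41.8 FPKM for the 5574 RefSeq transcripts under 4000 bp with at least 1 CPM. In reads per transcript the order was the other way round, with a median of 118 CPM against 49.9 CPM. A mean of at least 100 FPKM was reached by 16 of 154 long transcripts (10.4%) and by 27.8% of the shorter ones. The median count of a long transcript in its poorest library was 889, with quartiles of 304 and 1719.5. The median SD of log2 CPM between libraries of 1 strain was 0.072 for them and 0.098 for the shorter transcripts.

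**Figure D1:**
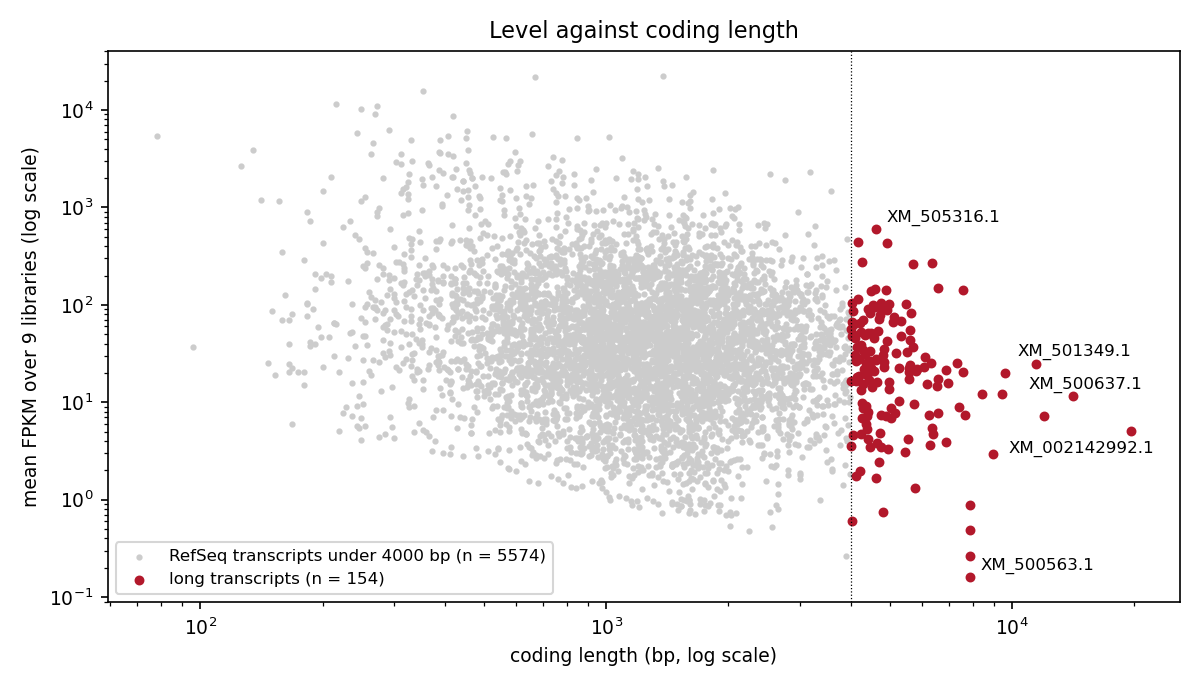
Mean FPKM over 9 libraries against coding length in bp, both on log axes, for 154 long transcripts (red) and 5574 shorter RefSeq transcripts (grey), with the limit of 4000 bp dotted. The long transcripts reach at most 596 FPKM, and the lowest points at 7866 bp belong to 4 rows of the same length.

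A few members held much of the signal. XM_505316.1 (YALI1_F15961g, 4629 bp) had the highest mean level, 596 ± 55.6 FPKM (SD over 9 libraries). It was followed by XM_503602.1 (4176 bp, no locus tag) with 443 ± 150.2 FPKM and XM_503935.1 (YALI1_E17258g, 4914 bp) with 428 ± 58.8 FPKM. The next in order were XM_502687.1 (275 ± 21.6 FPKM), XM_501118.1 (270.3 ± 14.6), XM_500859.1 (262 ± 20.1), XM_503737.1 (148 ± 10.1) and XM_502167.1 (145 ± 12.2). XM_502687.1, XM_501118.1 and XM_500859.1 lay within their spread of each other, and so did the last pair. The 5 members with the most reads took 28.0% of all counts on long transcripts, and the top 10 took 40.8%.

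The 4 longest members were of moderate or low level. XM_002142992.1, at 19617 bp the longest, had 5.02 ± 0.255 FPKM and between 92.1 and 109 CPM in every library. XM_500637.1 (YALI1_B11200g, 14091 bp) had 11.5 ± 1.45 FPKM, XM_504704.1 (YALI1_E39057g, 11949 bp) 7.29 ± 0.596 FPKM and XM_501349.1 (YALI1_C02831g, 11430 bp) 24.8 ± 1.86 FPKM. Of these, XM_501349.1 passed the test for a difference among strains and is taken up below. For the longest, the fitted log2 ratios between strains were -0.04 (SE 0.053), -0.03 (SE 0.053) and 0.01 (SE 0.052), and none passed the test.

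A different picture was given by rows of 7866 bp. This exact length occurred in 8 RefSeq rows, while no other length of at least 4000 bp occurred in more than 2. Of these rows 4 were members and 4 were the rows left out below 1 CPM. XM_503899.1 had 733 counts over the 9 libraries, XM_500568.1 had 404 and XM_499898.1 had 222. XM_500563.1 had 145 of its 157 counts in yl_10 replicate 1 and at most 5 in any other library, and it was the 1 member that did not pass the expression filter. The remaining 153 were tested. Rows of equal length can be near-identical copies, whose reads a counting program may split or drop, so the levels of these rows are uncertain.

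Summed over all long transcripts, yl_12 had the highest level. The summed CPM was 34973, 36369.7 and 34593 in the 3 libraries of yl_10, 34438, 34836 and 34276.5 in those of yl_11, and 37610.1, 37366 and 36957 in those of yl_12. The libraries of yl_12 lay above all others, while yl_11 and yl_10 overlapped. Means were 35312 ± 936 (SD, n = 3), 34517 ± 288 and 37311 ± 330 CPM, and the long transcripts took 3.57% of all counts. XM_503602.1 alone contributed a large part of the excess, and without it the means were 34196 ± 796, 32566 ± 222 and 34830.0 ± 667 CPM. The libraries of yl_12 (34066 to 35296 CPM) then overlapped those of yl_10 (33627 to 35106 CPM). Without the 5 most abundant members, yl_10 came first at 26639.6 ± 589 CPM, ahead of yl_12 at 25841 ± 255 and yl_11 at 24881 ± 156. Values are shares of each library, so fewer cells with a transcript and less of it per cell cannot be told apart. yl_11 had the lowest mean in all 3 sums. On TMM-scaled totals, however, the sum over all members was 34458 ± 269.8 CPM in yl_11 and 34686 ± 622 CPM in yl_10, a gap within their spread. The separation of yl_12 from yl_10 in CPM depended on XM_503602.1, and its first place by mean on the 5 most abundant members.

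In the fit of all 9 libraries, 37 of the 153 tested long transcripts (24.2%) differed among the 3 strains at an adjusted p below 0.05 in the F test of edgeR, against 15.0% of all 6147 features tested. That background is not matched for level in reads, and calls over all features were more frequent at higher levels. Between yl_12 and yl_10, 3.86% of all features rose and 6.65% fell from 2.07 to below 74.5 CPM. From 74.5 to below 187 CPM it was 8.81% and 11.9%, and from 187 CPM up 15.5% and 8.73%. The mean level was lowest in yl_11 for 17 of the 37, lowest in yl_10 for 12 and lowest in yl_12 for 8. It was highest in yl_12 for 20, in yl_10 for 17 and in yl_11 for 0. As shares of the 37, yl_11, yl_10 and yl_12 were lowest in 45.9%, 32.4% and 21.6% and highest in 0%, 45.9% and 54.1%. Among all 920 features that differed they were lowest in 21.7%, 32.5% and 45.8% and highest in 17.7%, 45.0% and 37.3%. The shares of yl_10 were thus near those of all features, while those of yl_11 and yl_12 were not. With CPM on TMM-scaled library sizes (TMM corrects library totals for composition), yl_11 was again lowest in 17 and highest in 0 of the 37. These places describe means and do not say which pairs of strains differ. The 37 shrank by over 1.5 times without yl_10 replicate 1 (23) or 2 (24), yl_11 replicate 1 (21) or 3 (21), and yl_12 replicate 1 (19) or 2 (24). The 920 calls over all features also fell in these fits, to 600, 662, 716, 680, 558 and 547 in that order. When the 3 deviating libraries were removed, which had been picked from their own values, 76 long transcripts and 38.3% of all features were called.

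**Figure D2:**
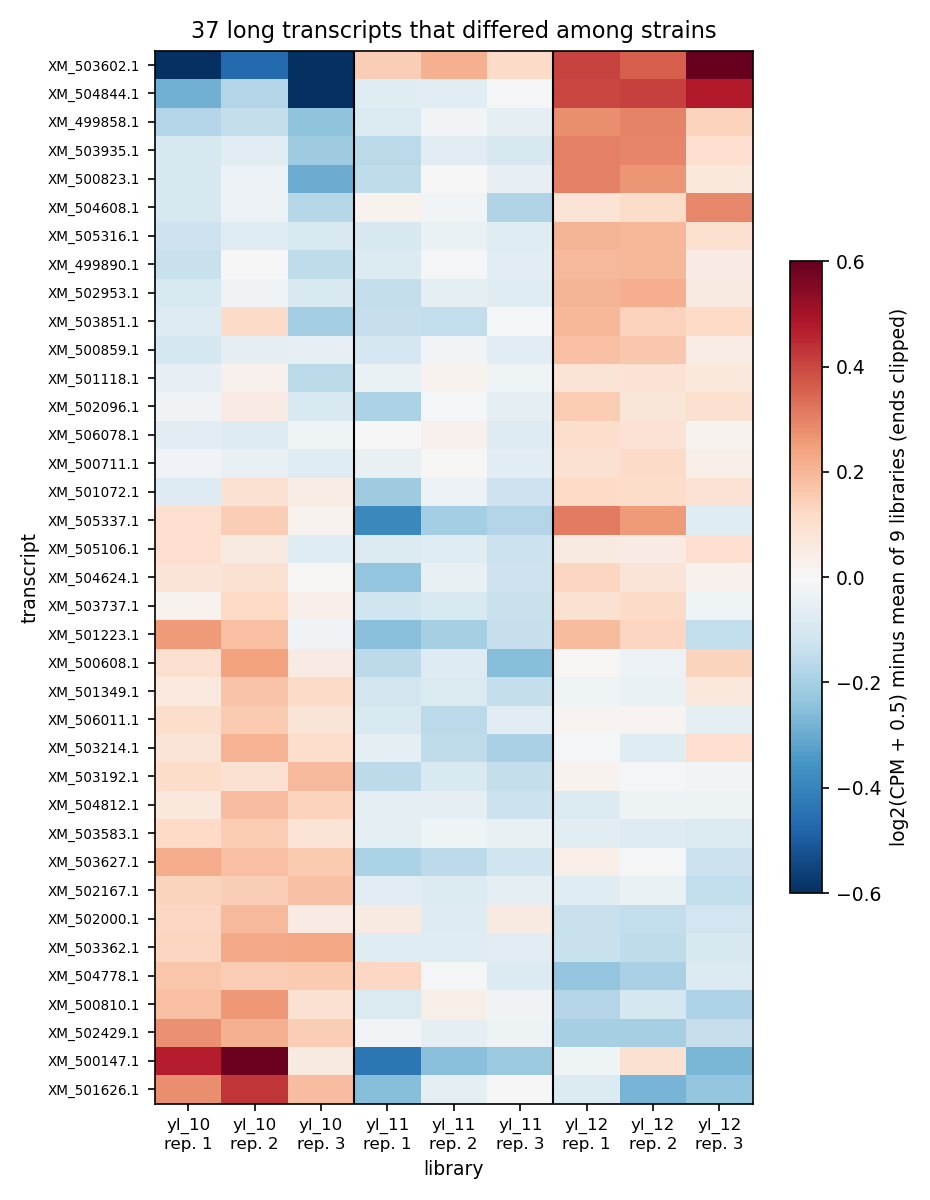
Level of the 37 long transcripts that differed among strains, in each of the 9 libraries, as log2(CPM + 0.5) minus the mean of the transcript over all libraries, sorted by the ratio of yl_12 to yl_10, with colours clipped at both ends of the scale. The upper rows are high in yl_12, the lower rows are high in yl_10, and no row has its highest strain mean in yl_11.

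Long transcripts were mostly lower in yl_11 than in yl_10. Of the 153 tested, 10 fell and 1 rose in yl_11 at an adjusted p below 0.05 in edgeR, or 6.54% and 0.654%. The background over all features was 2.49% lower and 1.68% higher, 4.16% in either direction. At an unadjusted p below 0.05, 36 were lower (background 10.3%) and 4 higher (background 9.22%). The median log2 ratio (the fitted log2 fold change, named by its strains) was -0.070 for the long transcripts and -0.00036 for all features, and 118 of 153 (77.1%) had a value below 0, against 50.1% of all features. In TMM-scaled CPM, all 3 libraries of yl_11 lay below all 3 of yl_10 for 45 members (29.4%, background 13.9%) and above them for 5 (3.27%, background 13.2%). The changes were small: no member reached a 2-fold difference, and the called members had a median absolute log2 ratio of 0.24.

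The single rise was XM_503602.1, one of the most abundant members. Levels in yl_10 were 1118, 1264 and 966 CPM, and those in yl_11 were 1937, 2023 and 1893 CPM. All libraries of yl_11 were higher, with a log2 ratio of 0.83 (SE 0.11; adjusted p = 0.0044 in edgeR). The deepest fall was that of XM_500147.1 (YALI1_A17085g, 4287 bp), from 88.9, 96.4 and 66.4 CPM to 47.1, 53.7 and 54.7 CPM. The groups did not overlap, although yl_10 replicate 3 lay well below the other libraries of its strain, and the log2 ratio was -0.68 (SE 0.13; adjusted p = 0.021).

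XM_503627.1 (YALI1_E07676g, 4242 bp) fell from 257, 249.6 and 246 CPM to 193, 197 and 203 CPM. Its libraries were close together in both strains, and the log2 ratio was -0.32 (SE 0.046; adjusted p = 0.0026 in edgeR). XM_503362.1 (YALI1_E00510g, 4785 bp) fell from 469, 502 and 503 CPM to 408, 407 and 411 CPM, a log2 ratio of -0.24 (SE 0.047; adjusted p = 0.016). The falls of XM_501626.1 (YALI1_C12513g, 4044 bp), from 22.5 ± 1.99 to 17.0 ± 1.59 CPM (SD, n = 3), and of XM_501223.1 (4962 bp, no tag), from 88.2 ± 8.52 to 69.7 ± 2.75 CPM, passed narrowly, with an adjusted p of 0.049 and 0.048 in edgeR. Among the 4 longest, XM_501349.1 fell from 294, 318 and 306 CPM to 262, 266 and 256 CPM, a log2 ratio of -0.20 (SE 0.049; adjusted p = 0.038).

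Most of these calls depended on single libraries. The 10 falls and 1 rise became 2 falls and 1 rise without yl_10 replicate 1, and 2 and 2 without yl_10 replicate 2. They became 1 and 1 without any 1 library of yl_11. Without yl_10 replicate 1 or 2, 1.31% of members fell each time, beside 0.715% and 0.942% of all features. Without yl_11 replicate 1, 2 or 3, 1.31% of members were called in either direction, beside 1.58%, 1.02% and 1.72% of all features. So few calls cannot decide the direction. Of the members, 72.5% to 80.4% still had a log2 ratio below 0 in these fits. With yl_12 replicate 1, 2 or 3 removed, the falls numbered 4, 5 and 18 and the rises 1, 1 and 4. The falls were 2.61%, 3.27% and 11.8% of members, beside 1.80%, 1.69% and 4.43% of all features. The rises were 0.654%, 0.654% and 2.61%, beside 1.02%, 1.01% and 3.99%. With the 3 deviating libraries removed there were 40 falls and 8 rises (26.1% and 5.23%), while of all features 9.94% fell and 10.1% rose. Blocking by replicate number gave 5 calls (3.27%), against 2.46% of all features. XM_503602.1 and XM_503627.1 kept their calls in all 18 alternatives. XM_500147.1 lost its call without yl_10 replicate 1 (adjusted p = 0.076 in edgeR) or 2 (0.064) and without yl_11 replicate 1 (0.073), 2 (0.083) or 3 (0.052). XM_503362.1 lost it when yl_10 replicate 2 (0.060) or yl_11 replicate 1 (0.057), 2 (0.086) or 3 (0.079) was removed. XM_501626.1 and XM_501223.1 lost theirs in 10 and 11 of the 18 alternatives, each without any 1 of yl_10 replicate 1 or 2, the 3 libraries of yl_11 and yl_12 replicate 1 or 2, with adjusted p up to 0.170 and 0.186.

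Between yl_12 and yl_10 long transcripts were called in both directions. There were 14 higher and 14 lower in yl_12 (9.15% each, adjusted p below 0.05 in edgeR), near the background of 7.0% and 7.81%, or 14.8% in either direction. At an unadjusted p below 0.05, 25 were higher (background 13.7%) and 23 lower (background 15.0%). In TMM-scaled CPM, the libraries of yl_12 lay above those of yl_10 without overlap for 25 members (16.3%, background 15.2%) and below for 29 (background 16.4%). The median log2 ratio was -0.016, with 85 of 153 below 0 (55.6%, against 51.0% of all features). With library totals as the only scaling the split was 10 higher and 23 lower (6.54% and 15.0%), beside 4.29% and 12.9% of all features, whose median moved to -0.058. Among the 51 tested members with the most reads (at least 187 CPM) 10 rose and 6 fell (19.6% and 11.8%), while 15.5% and 8.73% of all features at that level did. Among the next 51 in order, 2 rose and 4 fell (3.92% and 7.84%), fewer than the 8.81% and 11.9% of all features at that level. Among the 51 with the fewest reads, 2 rose and 4 fell (3.92% and 7.84%), beside 3.86% and 6.65% of all features there.

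XM_503602.1 led the rises with 2314, 2238 and 2891 CPM in yl_12 against 1118, 1264 and 966 CPM in yl_10. Its log2 ratio of 1.21 (SE 0.11; adjusted p = 0.00011 in edgeR) was the only change of at least 2-fold in any of the 3 comparisons. XM_504844.1 (YALI1_F01614g, 4113 bp) had 53.5, 57.9 and 40.9 CPM in yl_10 and 86.8, 87.2 and 91.4 CPM in yl_12. The libraries of yl_12 were closely grouped above those of yl_10, with a log2 ratio of 0.85 (SE 0.088; adjusted p = 5.8e-05). XM_499858.1 (YALI1_A07472g, 4248 bp) rose from 145, 148 and 138 to 198, 201 and 179.7 CPM, a log2 ratio of 0.48 (SE 0.047; adjusted p = 3.6e-05). Its lowest library in yl_12 was replicate 3.

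XM_503935.1 rose from 1957, 1995 and 1804 CPM in yl_10 to 2576, 2563 and 2244 CPM in yl_12, a log2 ratio of 0.41 (SE 0.056; adjusted p = 0.00039 in edgeR). XM_500823.1 (YALI1_B17155g, 4419 bp) rose from 359 ± 33.7 to 459 ± 39.9 CPM (SD, n = 3), with a log2 ratio of 0.41 (SE 0.069; adjusted p = 0.0017 in edgeR). The most abundant member, XM_505316.1, had 2523, 2614 and 2577 CPM in yl_10 and 3166, 3157 and 2935 CPM in yl_12, a log2 ratio of 0.32 (SE 0.046; adjusted p = 0.0006). Of the 8 members with the highest FPKM, 5 rose in yl_12, 1 fell (XM_502167.1, from 737 ± 11.4 to 625 ± 23.6 CPM) and 2 were not called (XM_502687.1 and XM_503737.1). XM_502687.1 had 1174 ± 162 CPM in yl_10 and 1164 ± 71.9 CPM in yl_12, and yl_10 replicate 3 was its lowest library.

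The falls in yl_12 were shallower. XM_501626.1 went from 22.2, 24.7 and 20.8 to 17.2, 14.9 and 15.4 CPM, a log2 ratio of -0.46 (SE 0.10; adjusted p = 0.0094 in edgeR). For this transcript the reference gene with the matching accession (version ignored) has 2124 bp, 52.5% of the coding length. It is over 10% shorter for 2 more of the 120 with a tag. The tag or the coding length of XM_501626.1 is therefore doubtful. XM_502429.1 (5157 bp, no tag) went from 47.6, 45.6 and 43.6 to 34.2, 34.2 and 35.6 CPM, a log2 ratio of -0.35 (SE 0.062; adjusted p = 0.0025). Libraries within each strain differed little for this transcript, and the strains were clearly apart.

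XM_500810.1 (6552 bp, no tag) fell from 128 ± 7.48 to 102 ± 3.35 CPM (SD, n = 3), with a log2 ratio of -0.28 (SE 0.050; adjusted p = 0.0027 in edgeR). XM_505578.1 (YALI1_F24469g, 4875 bp) fell from 40.4 ± 2.82 to 31.3 ± 3.60 CPM, a log2 ratio of -0.31 (SE 0.089; adjusted p = 0.032). XM_506110.1 (YALI1_F39426g, 4392 bp) fell from 34.9 ± 3.29 to 27.4 ± 0.918 CPM, a log2 ratio of -0.28 (SE 0.089; adjusted p = 0.048). These last 2 calls were weak, while XM_500810.1 kept its call in all 18 alternatives.

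Over the 18 alternatives, 13 of the 28 calls were made every time, among them those of the 5 largest rises, of XM_505316.1 and of the falls of XM_501626.1, XM_502429.1 and XM_500810.1. XM_505578.1 lost its call in 8, with adjusted p of 0.089 and 0.088 in edgeR without yl_10 replicate 1 or 3, 0.054 with yl_11 replicate 3 removed, and 0.077 and 0.095 with yl_12 replicate 1 or 3 removed. Its log2 ratio was -0.18 with the 3 deviating libraries removed (adjusted p = 0.10 in edgeR). XM_506110.1 lost it in 13, with adjusted p of 0.068, 0.052 and 0.13 without yl_10 replicate 1, 2 or 3, 0.068 and 0.072 with yl_11 replicate 2 or 3 removed, and 0.11, 0.15 and 0.059 with yl_12 replicate 1, 2 or 3 removed. Removing yl_10 replicate 1 left 11 rises and 6 falls, and removing yl_10 replicate 2 left 14 and 7. With yl_11 replicate 2 or 3 removed there were 13 and 9 or 14 and 8, and with yl_12 replicate 1 or 2 removed 11 and 7 or 11 and 8. In these fits the rises were 7.19% to 9.15% of members and the falls 3.92% to 5.88%. Of all features, 4.32% to 6.27% rose and 5.44% to 6.95% fell. A fit of these 2 strains alone gave 13 rises and 6 falls (8.50% and 3.92%), beside 5.67% and 5.89% of all features. The replicate block gave 13 and 9 (8.50% and 5.88%), beside 5.73% and 6.59%. Removing the 3 deviating libraries gave 28 and 27 (18.3% and 17.6%), beside 15.6% of all features in each direction.

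**Figure D3:**
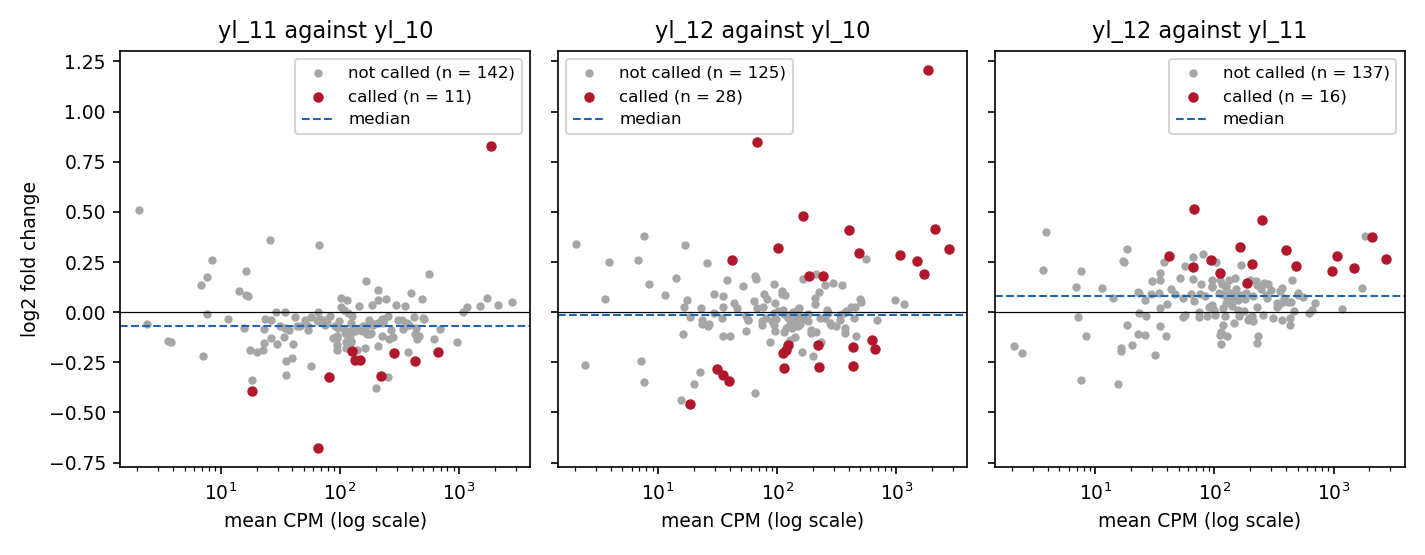
Log2 fold change of the 153 tested long transcripts against their mean CPM (log axis) in the 3 comparisons, with transcripts at an adjusted p below 0.05 in red and the median as a dashed line. The median lies at -0.070, -0.016 and 0.083, and all 16 called transcripts are above 0 for yl_12 against yl_11.

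All calls between yl_12 and yl_11 were rises. In yl_12, 16 of 153 long transcripts (10.5%, background 3.20%) were higher and 0 lower (background 3.84%, or 7.04% in either direction) at an adjusted p below 0.05 in edgeR. At an unadjusted p below 0.05, edgeR gave 46 higher (background 10.7%) and 6 lower (background 10.3%). At the adjusted threshold the counts were 18 (11.8%) and 0 in DESeq2, with backgrounds of 3.92% and 3.77%. They were 7 (4.58%) and 0 in limma on FPKM, with backgrounds of 1.40% and 4.57%. The median log2 ratio was 0.083 for the long transcripts and -0.0015 for all features, and 42 of 153 (27.5%) were below 0, against 50.4% of all features. In TMM-scaled CPM, all libraries of yl_12 were above all of yl_11 for 58 members (37.9%, background 13.6%) and below for 5 (3.27%, background 14.5%). This comparison shares the yl_11 libraries with that against yl_10 above, and a low yl_11 enters both.

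XM_504844.1 had the largest rise, from 62.2, 62.5 and 64.9 CPM in yl_11 to 86.8, 87.2 and 91.4 CPM in yl_12. The groups were far apart relative to their spread, with a log2 ratio of 0.52 (SE 0.085; adjusted p = 0.0027 in edgeR). XM_505337.1 (YALI1_F16984g, 4671 bp) had 190.5, 216 and 221 CPM in yl_11, 309, 298 and 237 CPM in yl_12 and 267, 276 and 253 CPM in yl_10. It was lowest in yl_11, and the log2 ratio of yl_12 against yl_11 was 0.46 (SE 0.088; adjusted p = 0.012).

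XM_503935.1 rose from 1866, 1991 and 1953 to 2576, 2563 and 2244 CPM, a log2 ratio of 0.38 (SE 0.056; adjusted p = 0.0015 in edgeR), and its yl_11 libraries overlapped those of yl_10. XM_499858.1 rose from 154, 161 and 157 to 198, 201 and 179.7 CPM, a log2 ratio of 0.32 (SE 0.046; adjusted p = 0.0011). XM_500823.1 rose from 378 ± 20.1 to 459 ± 39.9 CPM (SD, n = 3), a log2 ratio of 0.31 (SE 0.068; adjusted p = 0.017). For XM_505316.1 the log2 ratio was 0.27 (SE 0.046; adjusted p = 0.0036), from 2618 ± 54.5 to 3086 ± 131 CPM. XM_503602.1, the leading rise against yl_10, was not called here, at 1937, 2023 and 1893 CPM in yl_11 and 2314, 2238 and 2891 CPM in yl_12. The libraries did not overlap, and its log2 ratio of 0.38 (SE 0.11; adjusted p = 0.077 in edgeR) was as large as that of XM_503935.1.

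Here too the number of calls rested on single libraries, while their direction held except where the deviating libraries were handled apart or yl_12 replicate 3 was left out (19 higher, 1 lower). That last fit called 12.4% and 0.654% of members, beside 6.01% and 5.65% of all features. Removing yl_11 replicate 1 or 3 brought the 16 to 6 and 7, and removing yl_12 replicate 1 or 2 to 6 and 7, each time with 0 lower. The shares higher were 3.92%, 4.58%, 3.92% and 4.58% of members, beside 1.09%, 1.43%, 1.12% and 1.17% of all features. Of all features, 2.18%, 2.29%, 2.01% and 1.92% were lower in these fits. With the 3 deviating libraries removed there were 44 higher and 4 lower (28.8% and 2.61%), beside 13.1% and 11.6% of all features. With a term for them there were 34 and 3 (22.2% and 1.96%), beside 8.80% and 7.04%. In all, 5 calls were made in each of the 18 alternatives, those of XM_504844.1, XM_499858.1, XM_503935.1, XM_505316.1 and XM_502953.1. The last, chosen after its values were seen, is 7575 bp long (YALI1_D21702g) and had means of 1005 ± 31.2 (SD, n = 3) for yl_11 and 1197 ± 73.9 CPM for yl_12. XM_505337.1 lost its call without yl_12 replicate 2 (adjusted p = 0.056 in edgeR). XM_500823.1 lost it when yl_11 replicate 1 (0.085) or 3 (0.056) or yl_12 replicate 1 (0.090) or 2 (0.083) was removed, and with library totals only (0.061).

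**Figure D4:**
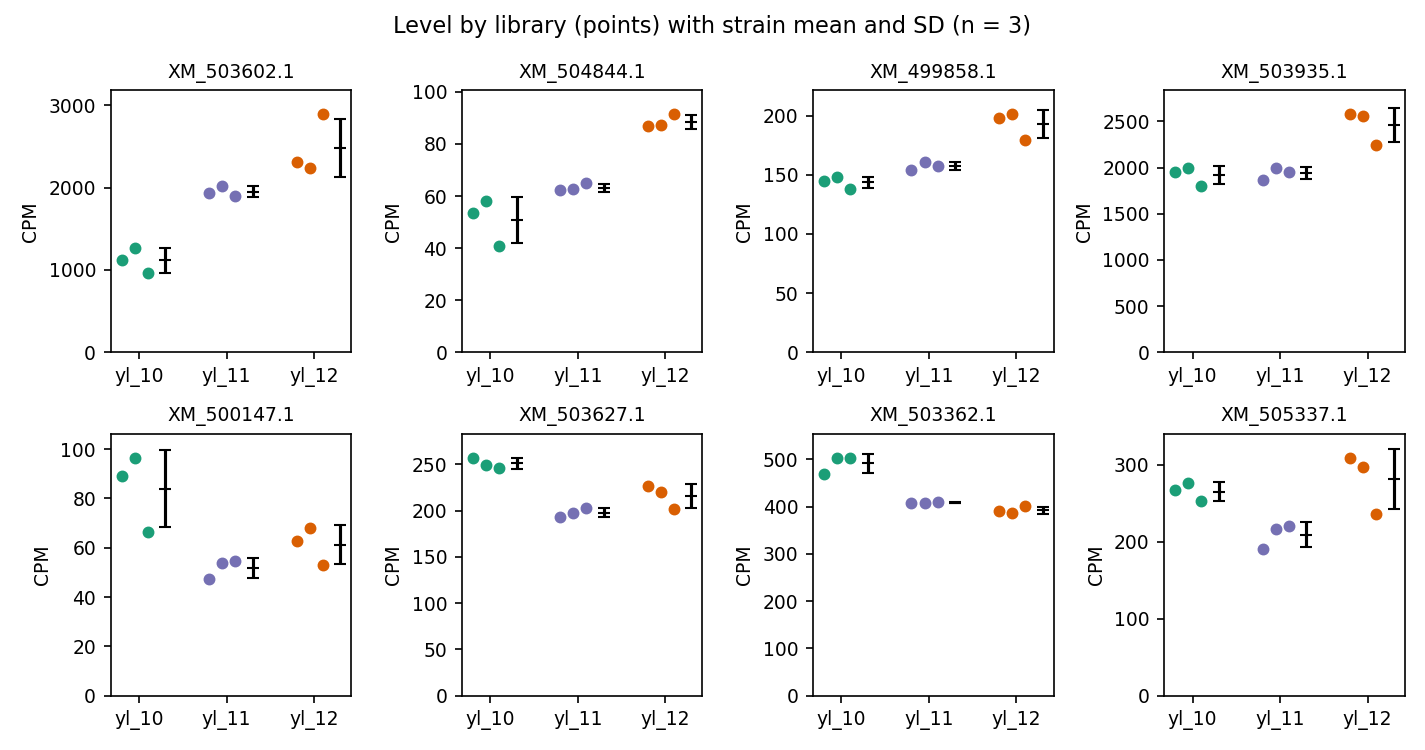
CPM of 8 long transcripts in each library (points), with the mean and SD of each strain (n = 3) beside them and axes from 0. The upper row shows transcripts that rose in yl_12, and the lower row transcripts with higher levels in yl_10 than in yl_11.

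Of the 153 tested members, 40 (26.1%) were called in at least 1 of the 3 comparisons, as were 17.5% of all features, and 111 were called in none and did not pass the F test. The share of all features is again not matched for level in reads. XM_503362.1 was called against yl_10 in both other strains, with 409 ± 1.81 CPM (SD, n = 3) in yl_11, 392 ± 7.47 in yl_12 and 491 ± 19.7 in yl_10. XM_503935.1 was called in yl_12 against both other strains, with 1918 ± 101 CPM in yl_10, 1937 ± 64.2 in yl_11 and 2461 ± 188 in yl_12.

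The low level in yl_11 was graded with coding length over the whole transcriptome. RefSeq transcripts of at least 1 CPM had a median log2 ratio of yl_11 against yl_10 of 0.078 under 600 bp (n = 787) and 0.0063 from 600 to below 1200 bp (n = 1934). It was -0.010 from 1200 to below 2000 bp (n = 1814), -0.031 from 2000 to below 4000 bp (n = 1039) and -0.070 for the long transcripts. For yl_12 against yl_11 the same classes had -0.033, -0.0054, 0.00090, 0.019 and 0.083. For yl_12 against yl_10 they had 0.048, -0.0069, -0.013, -0.012 and -0.016, with no such order among the classes above 600 bp. The value of 0.048 under 600 bp was 0.013 without yl_12 replicate 3, 0.021 without yl_10 replicate 3, -0.0090 without the 3 deviating libraries and -0.0077 with library totals only. Among the long transcripts, the 94 from 4000 to below 5000 bp, the 27 from 5000 to below 6000 bp and the 32 of at least 6000 bp had -0.066, -0.070 and -0.096 for yl_11 against yl_10. They had 0.082, 0.069 and 0.11 for yl_12 against yl_11. With the 3 deviating libraries removed, the medians of all long transcripts were -0.078 and 0.077 in these comparisons.

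**Figure D5:**
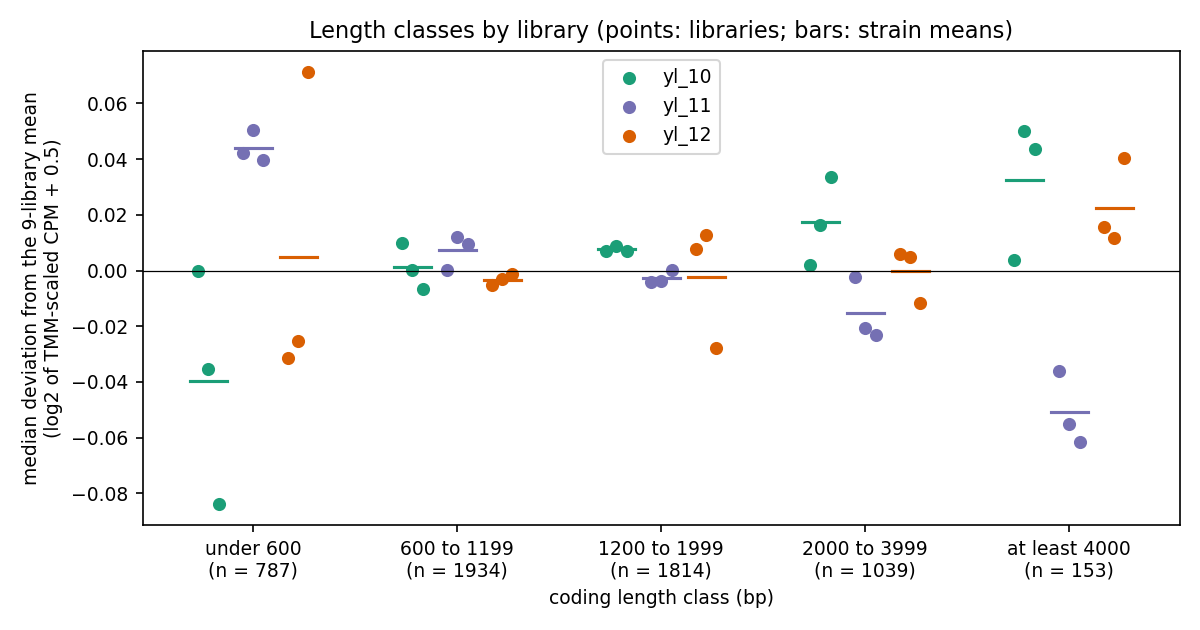
Median deviation of each library from the mean of all 9, in log2 of TMM-scaled CPM + 0.5, over RefSeq transcripts in 5 classes of coding length; points are libraries and bars are strain means. In the class of at least 4000 bp the 3 libraries of yl_11 lie between -0.062 and -0.036 and those of the other strains between 0.0038 and 0.050.

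The shift of the long transcripts was seen in each library of yl_11. Their median deviation from the mean of the 9 libraries was -0.036, -0.055 and -0.062 in yl_11 replicates 1, 2 and 3. It was 0.0038, 0.050 and 0.043 in yl_10 and 0.015, 0.012 and 0.040 in yl_12, so that yl_11 did not overlap the other strains, which overlapped each other. With library totals as the only scaling the values were -0.041, -0.047 and -0.056 in yl_11, 0.042, 0.092 and 0.040 in yl_10, and -0.0052, -0.0075 and -0.0029 in yl_12. The spread among libraries of 1 strain was of similar size in the shortest class, where yl_10 ranged from -0.084 to -0.00033 and yl_12 from -0.031 to 0.071. RNA quality values per library are not in the tables used here, and the part of RNA quality or library preparation in a shift graded by length was not tested. Across the 153 long transcripts alone, Spearman's rho of the fold change with length was -0.092, 0.020 and 0.043 for yl_11 against yl_10, yl_12 against yl_10 and yl_12 against yl_11. Over all 5727 RefSeq transcripts of at least 1 CPM that were tested, it was -0.20, -0.071 and 0.12. These are descriptions across transcripts of the same 9 libraries, and length also went with level in reads (rho 0.23).

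The least repeatable members were scarce. Among those of at least 10 CPM, the largest SD of log2 CPM within strains was 0.297 for XM_502079.1 (YALI1_C29261g, 4704 bp), followed by 0.259 for XM_500428.1 (YALI1_B03910g, 4458 bp) and 0.245 for XM_504518.1 (YALI1_E33943g, 4746 bp). Libraries of XM_502079.1 were at 9.08, 11.1 and 15.1 CPM in yl_10, at 12.7, 9.43 and 10.7 in yl_11 and at 9.30, 11.1 and 14.6 CPM in yl_12. Its highest value in each strain fell in yl_10 replicate 3, yl_11 replicate 1 and yl_12 replicate 3, the libraries that stand apart within their strains. XM_500428.1 was at 12.1 CPM in yl_11 replicate 2 and at 18.3 CPM in replicate 1. XM_504518.1 ranged from 11.2 to 19.3 CPM within yl_12. None of the 3 was called in any comparison.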

How the data were processed

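Total RNA of 9 libraries was sequenced as paired-end reads of 150 bp on an Illumina HiSeq instrument after preparation with an NEBNext Ultra kit, per the labels' protocols. The authors deposited raw read counts per feature and FPKM values per feature, with 1 column per library. The submitters' processing notes list HTSeq 0.6.1 and DESeq 1.18.0 without saying what each did. Aligner, build, annotation and strandedness are not given in the sources consulted, so overlapping, antisense and near-identical genes may share or lose reads. The deposited FPKM equal the count divided by length and library total to within a relative difference of 7.606e-15, and this gave the coding length, a multiple of 3 for all 154 members.

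Counts of all features entered the edgeR 4.0.16 quasi-likelihood fit, run under R 4.3.3 (TMM factors, default filter by strain, robust fit, strain as the only term). Benjamini-Hochberg adjustment of the p-values ran over all 6147 features tested, and features were called at an adjusted p below 0.05. The SE is the log2 fold change divided by the root of the F statistic. CPM values use library totals. The script was tested on simulated data. Intervals of counting error are not given, and p-values measure the spread between libraries, which may be technical, since nothing says that they came from separate cultures. No 2 libraries were counted as 1. Chi-square over degrees of freedom between libraries of a strain was 1.87, 2.33 and 1.73 in yl_10, yl_11 and yl_12 for the pair without the deviating library. Pairs with the deviating library had 7.16 to 15.6. The labels do not say whether the closer pair of a strain came from separate samples, so n = 3 may overstate their number.

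Named transcripts are the 5 largest rises and 5 largest falls per comparison among called members whose libraries do not overlap, the 8 highest in FPKM, the 4 longest, the 3 nearest to each limit on either side and the 3 least repeatable. A planned description of protein patterns was not made, since no protein sequences were used. Members and lists were chosen with earlier results of these data known. Alternatives were DESeq2 1.42.0, limma 3.58.1 on log2(FPKM + 1), other scalings, no filter, only the 2 strains compared, a replicate block, a term for or removal of 3 libraries, and leaving out each library.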

Additional observations from a re-analysis of the deposited data

Results flagged for a closer look

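Of the 4 RefSeq rows of at least 4000 bp that were left out below 1 CPM, 2 had more than 3 counts summed over the 9 libraries. XM_503731.1 had 12 counts over the 9 libraries, 10 of them in yl_10 replicate 2 and 2 in yl_11 replicate 1. XM_503128.1 had 4 counts, all in yl_11 replicate 1. The other pair, XM_499888.1 and XM_504795.1, had 1 count each. All 4 rows are 7866 bp long.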

How the results depend on the processing

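For yl_11 against yl_10 the count of 11 calls became 17 with library totals only, 19 with DESeq2, 5 with the replicate block, 48 after removing the 3 deviating libraries and 32 when they had their own term, and 2 to 22 when 1 library was left out. These were 11.1%, 12.4%, 3.27%, 31.4%, 20.9% and 1.31% to 14.4% of members. Of all features, 4.26%, 5.82%, 2.46%, 20.1%, 13.1% and 1.02% to 8.43% were called in the same fits. For yl_12 against yl_10 the count of 28 became 55 without the 3 libraries and 17 to 31 with 1 left out. These were 35.9% and 11.1% to 20.3% of members, beside 31.2% and 9.95% to 16.1% of all features. For yl_12 against yl_11 the count of 16 became 7 with limma on FPKM, 48 without the 3 libraries, 37 with a term for them and 6 to 23 with 1 left out. These were 4.58%, 31.4%, 24.2% and 3.92% to 15.0% of members. Of all features, 5.97%, 24.6%, 15.8% and 3.08% to 11.7% were called in the same fits. The F test's 37 became 24 with the replicate block, 76 without the 3 libraries, 63 with a term for them and 19 to 43 with 1 left out. Over all features its 920 calls became 707, 2357, 1704 and 547 to 1232 in the same order. Removing libraries that deviate lowers the spread by construction, and removing 1 library leaves fewer to detect a change.

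The median log2 fold changes became -0.095, -0.070 and 0.052 with library totals only, and -0.066 and 0.049 with limma for yl_12 against yl_10 and against yl_11. With 1 library left out they ranged from -0.091 to -0.051, from -0.036 to 0.0014 and from 0.070 to 0.087, the second changing sign without yl_10 replicate 2. The summed CPM of yl_12 was 38044 on TMM-scaled totals. No call of a named transcript changed sign. The replicate number did not pair the libraries, since correlations of deviations between same-numbered libraries ran from -0.37 to 0.29. The block gave 22 and 12 calls for yl_12 against yl_10 and against yl_11 (14.4% and 7.84%), beside 12.3% and 5.34% of all features. Members with few reads, such as XM_499898.1 (10 to 32 counts per library) and XM_503779.1 (19 to 42), are measured least precisely.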

Other observations

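Of the 120 with a locus tag, 2 pairs were next to each other in the order of reference genes: XM_503154.1 with XM_503155.1 and XM_503183.1 with XM_503184.1. Neither pair was called in any comparison, and the log2 fold changes of yl_12 against yl_11 were 0.098 and 0.0063 in the first pair and 0.083 and 0.088 in the second. Members without a tag could not be placed, so the number of neighbours is a minimum.

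The length in the deposited tables and that of the reference gene with the same accession, its version ignored, were equal for 33 of the 120. The reference gene was over 10% shorter for 3 and over 10% longer for 12. The 3 were XM_502854.1, XM_501626.1 and XM_500173.1, with 45.5%, 52.5% and 69.8% of the coding length, all below the limit of 4000 bp in the reference. XM_499858.1, one of the steadiest rises in yl_12, was among the longer ones.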
